A study of Homo sapiens with 11 samples.

Results

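The 10 genes described here encode NRF2 (gene NFE2L2), its inhibitor KEAP1, the antioxidant enzymes NQO1 and HMOX1, and 6 enzymes that make, recycle or use glutathione (GCLC, GCLM, GSS, GSR, GPX1 and GPX4). They were taken by symbol from a count table of 58735 genes, and all 10 passed the filter on low counts that left 18368 genes for testing. NRF2 is the transcription factor that activates antioxidant and detoxification genes. In unstressed cells KEAP1, an adaptor of the cullin CUL3, presents NRF2 to a ubiquitin ligase, and NRF2 is degraded by the proteasome. CUL3 works best when the ubiquitin-like protein NEDD8 is attached to it, a step that runs through the activating enzyme NAE1/UBA3 and the conjugating enzyme UBE2M, so that NAE1 and UBE2M stand upstream of the KEAP1 ligase. When KEAP1 is inactive, NRF2 enters the nucleus, pairs with small MAF proteins and binds antioxidant response elements. Glutathione, the main small thiol of cells, is built by glutamate-cysteine ligase and glutathione synthetase and is spent by peroxidases and transferases. KEAP1 controls NRF2 at the level of the protein, which these data do not measure.

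The cells were HEK293T, a human embryonic kidney line grown in high-glucose medium, and knockdown cells were harvested 48 h after transfection with Lipofectamine RNAiMAX. The groups were control (n = 3 libraries), siNAE1 (siRNA to NAE1, 50 nM, n = 3), siUBE2M (siRNA to UBE2M, 70 nM, n = 3) and siURM1 (siRNA to URM1, 60 nM, n = 2), so the siRNA concentration differed between knockdowns. URM1 is a ubiquitin-like protein that also donates sulfur for tRNA thiolation. The labels name the control as a control siRNA, and the study's methods for knockdown list a non-targeting siRNA as the negative control, without its dose. A label in the study's supplement calls the control libraries HKWT. Replicates are named biological, but how the cultures were separated is not described.

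Messenger RNA was selected by its poly(A) tail and sequenced from both ends, and total counts per library ran from 11733163 to 16321391. NAE1, UBE2M and URM1 were at 38.9%, 6.34% and 28.6% of their control level in the cells given their own siRNA. Of 6 markers of HEK293T cells, all were detected in every library, with a summed level of 383 to 401 CPM in control and 499 to 653 CPM in knockdown cells. The summed level of 6 markers of HepG2 cells, also grown in the laboratory, was at most 0.971 CPM, and that of 4 leukocyte markers was 3.13 to 8.65 CPM, with at most 3 counts of PTPRC and 0 of CD3E. Markers of HeLa cells, which the study also used, were not checked. Values per library are counts scaled to the TMM-adjusted library total (CPM). A gene is written to have risen or fallen where edgeR's quasi-likelihood test, adjusted over all 18368 genes (Benjamini-Hochberg), gave an adjusted p under 0.05, and a differentially expressed gene (DEG) also changed by at least 1 on the log2 scale. The genes targeted by the other siRNAs also moved. In siURM1 cells UBE2M fell by 0.37 and NAE1 rose by 0.38 on the log2 scale (adjusted p = 8.9e-05 and 0.00022), in siUBE2M cells NAE1 rose by 0.28 (adjusted p = 0.0019) and URM1 was at -0.16 (adjusted p = 0.096), and in siNAE1 cells UBE2M fell by 0.16 and URM1 rose by 0.28 (adjusted p = 0.029 and 0.0032). The part of these changes in the values of the 10 genes was not tested.

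The letters that NRF2 and a small MAF protein bind can be looked for near the start sites of these genes. RefSeq promoter windows (GRCh38.p14, 250 bases before to 50 after a start) were at hand for NFE2L2, KEAP1, NQO1, GCLC, GCLM, GPX1 and GPX4, and HMOX1, GSS and GSR had none. The core of the antioxidant response element, TGACNNNGC on either strand, occurred in 13.3% of 35116 such windows and for 16.1% of 27305 genes. Of the genes here with a window, GCLM and KEAP1 held it. The 3 matches are shown because GCLM rose in 2 knockdowns while KEAP1, which holds the same 9 letters, was not called in any. Each is printed 5′ to 3′ on the strand of the gene, with the match in capitals.
GCLM, chr1:93909446-93909474, minus strand: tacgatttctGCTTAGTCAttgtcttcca
KEAP1, chr19:10502784-10502812, minus strand: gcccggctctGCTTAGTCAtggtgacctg
KEAP1, chr19:10502807-10502835, minus strand: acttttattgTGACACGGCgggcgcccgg
The first bases of the matches lay at -34 (GCLM), -31 and -54 (KEAP1) from the RefSeq start, and GENCODE v44 places each in an untranslated exon of 1 transcript of the same gene that begins further upstream. The KEAP1 matches belong to 1 of 2 KEAP1 start sites, and none of the other windows of these genes holds the letters. Bases outside the windows were not searched, so a gene without a match here may hold the letters further away. A match is a description of the sequence and not a measured binding site.

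**Figure D1:**
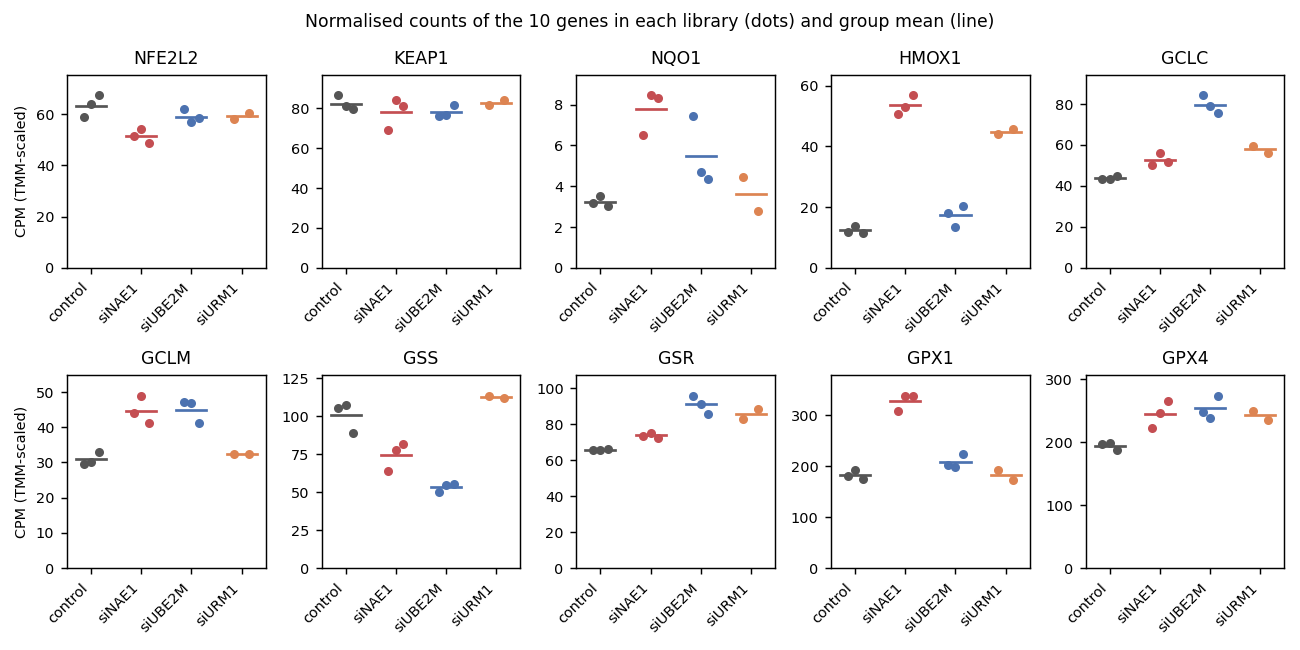
Level of each gene (CPM after TMM scaling, linear axes from 0) in the 11 libraries, with one dot per library and a line at the group mean. HMOX1 stands high in siNAE1 and siURM1 cells, GSS low in siUBE2M cells, and the groups overlap for KEAP1.

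Transcripts of the regulator pair moved little, and NFE2L2 fell in siNAE1 cells. NFE2L2 (ENSG00000116044, GRCh38 chromosome 2, 177227595 to 177392697, minus strand) had 58.8, 63.8 and 67.3 CPM in the control libraries. It had 51.2, 54.3 and 48.5 CPM in siNAE1 cells, 62.1, 56.7 and 58.3 CPM in siUBE2M cells, and 57.9 and 60.3 CPM in siURM1 cells. All siNAE1 libraries lay below all control libraries, while the siUBE2M and siURM1 values overlapped those of control. The log2 fold change was -0.30 in siNAE1 cells (standard error 0.08, adjusted p = 0.0013). In siUBE2M and siURM1 cells it was -0.10 in each (adjusted p = 0.29 and 0.37). Tested against the other knockdowns, NFE2L2 in siNAE1 cells differed by -0.20 from siUBE2M cells (adjusted p = 0.036) and by -0.20 from siURM1 cells (adjusted p = 0.064). The former call was lost in 6 of 18 alternatives. These were without siNAE1 replicate 1 (-0.20, adjusted p = 0.076), siNAE1 replicate 3 (-0.15, 0.15) or siUBE2M replicate 1 (-0.17, 0.14), with trends in length and GC content removed (-0.11, 0.16), with no filter on low counts (-0.20, 0.073) and with limma-trend on log2(FPKM + 1) (-0.18, 0.065). The latter value was called without siNAE1 replicate 2 (-0.24, adjusted p = 0.047). The listed span of NFE2L2 overlaps that of AGPS on the opposite strand, which encodes an enzyme of ether lipid synthesis and changed by -0.28, -0.18 and 0.20 in siNAE1, siUBE2M and siURM1 cells. Exons of the 2 genes share 11 bases in GENCODE v44, and no source states if strand was used in the counting. Of the tested genes, AC019080.1 and AC019080.5 overlap the span on the same strand, with counts of at most 10.5% and 5.49% of those of NFE2L2. Their log2 fold changes were -2.04 and -2.26 in siNAE1 cells and -1.10 and -1.21 in siUBE2M cells. In siURM1 cells they were -1.01 and -0.78 (adjusted p = 0.0022 and 0.082). The part of these genes in the NFE2L2 values was not tested. RNA per cell and the share of cells that carry it cannot be told apart in these bulk samples.

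KEAP1 was the one gene of the 10 that passed the test in none of the 6 comparisons. KEAP1 (ENSG00000079999, chromosome 19, 10486120 to 10503741, minus strand) had 86.6, 81.2 and 79.5 CPM in control, 69.4, 84.1 and 81.4 CPM in siNAE1, 76.4, 76.9 and 82.0 CPM in siUBE2M, and 81.6 and 84.4 CPM in siURM1 libraries. Every group overlapped control, and siNAE1 replicate 1 was the lowest library. Its log2 fold changes were -0.08 (95% interval -0.23 to 0.08), -0.07 (-0.22 to 0.08) and 0.01 (-0.16 to 0.18) in siNAE1, siUBE2M and siURM1 cells. Without siNAE1 replicate 1 the first of these was 0.01. With trends in gene length and GC content removed it was -0.18 and called (adjusted p = 0.014). The ratio of KEAP1 to NFE2L2 transcripts per length, from FPKM values, was 2.08 ± 0.24 in control (SD, n = 3), 2.43 ± 0.26 in siNAE1 (SD, n = 3), 2.12 ± 0.14 in siUBE2M (SD, n = 3) and 2.23 ± 0.01 in siURM1 cells (SD, n = 2), and the ranges overlapped.

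NQO1 and HMOX1 are textbook targets of NRF2, and NQO1 rose in siNAE1 and siUBE2M cells and HMOX1 in all 3 knockdowns. NQO1 reduces quinones with NADH or NADPH and is often read as a marker of NRF2 activity. It was the lowest of the 10 genes (ENSG00000181019, chromosome 16, 69706996 to 69726951, minus strand), with 53, 57 and 48 counts in the control libraries, or 3.20, 3.51 and 3.03 CPM. It had 6.53, 8.46 and 8.34 CPM in siNAE1 cells, 7.44, 4.72 and 4.35 CPM in siUBE2M cells, and 4.43 and 2.77 CPM in siURM1 cells. The siNAE1 and siUBE2M libraries were all above control, the siUBE2M libraries ranged widely, and the siURM1 libraries lay on either side of control. NQO1 rose by 1.26 on the log2 scale in siNAE1 cells (2.39-fold, standard error 0.22, adjusted p = 9.4e-06) and was a DEG. It rose by 0.76 in siUBE2M cells (standard error 0.22, adjusted p = 0.0058), a call that siUBE2M replicate 1 decided, since without that library the value was 0.49 (adjusted p = 0.097). In siURM1 cells the value was 0.16 (95% interval -0.37 to 0.68, adjusted p = 0.66), and it was -0.22 without siURM1 replicate 1.

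Between knockdowns, NQO1 was higher in siNAE1 than in siURM1 cells by 1.10 (adjusted p = 5e-04). Against siUBE2M cells the difference was 0.50 (adjusted p = 0.047). That call was lost in 9 of 18 alternatives, which were DESeq2 (adjusted p = 0.11), no filter on low counts (0.50, adjusted p = 0.05), limma-trend on log2(FPKM + 1) (0.34, adjusted p = 0.19) and the fits without control replicates 1 or 3 (0.50 in both), siNAE1 replicates 2 or 3 (0.43 and 0.46), or siUBE2M replicates 2 or 3 (0.39 and 0.36), and the value was 0.77 without siUBE2M replicate 1. From siURM1 to siUBE2M cells the difference was 0.60 (95% interval 0.09 to 1.10, adjusted p = 0.06), and it was called without siURM1 replicate 1 (0.98), siUBE2M replicate 2 (0.70) or siUBE2M replicate 3 (0.74). On the log2(FPKM + 1) scale, which understates changes of a gene near 1 FPKM, the NQO1 values against control were 0.75 in siNAE1 cells (adjusted p = 0.0058) and 0.41 in siUBE2M cells (adjusted p = 0.11), and siNAE1 exceeded siURM1 by 0.68 (adjusted p = 0.027).

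HMOX1, the inducible haem oxygenase that breaks haem down to biliverdin, iron and carbon monoxide, made the largest change of the 10 genes against control. HMOX1 (ENSG00000100292, chromosome 22, 35380361 to 35394214, plus strand) had 11.8, 13.9 and 11.6 CPM in control and 50.5, 53.1 and 56.9 CPM in siNAE1 libraries. It had 44.1 and 45.6 CPM in siURM1 cells and 18.1, 13.4 and 20.4 CPM in siUBE2M cells. The siNAE1 and siURM1 libraries stood far above the rest, whereas siUBE2M replicate 2 lay inside the control range. HMOX1 rose 4.30-fold in siNAE1 cells (log2 fold change 2.10, standard error 0.11, adjusted p = 2.3e-16) and 3.61-fold in siURM1 cells (1.85, standard error 0.12, adjusted p = 1.2e-13). In siUBE2M cells it rose 1.39-fold (0.48, standard error 0.12, adjusted p = 0.0017). That last call was lost on the log2(FPKM + 1) scale (0.39, adjusted p = 0.061).

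The difference between the knockdowns was itself tested. HMOX1 was higher in siNAE1 than in siUBE2M cells by 1.63 (adjusted p = 2.1e-13) and lower in siUBE2M than in siURM1 cells by -1.37 (adjusted p = 1e-10). Between siNAE1 and siURM1 cells it differed by 0.25 (95% interval 0.02 to 0.48, adjusted p = 0.077), a value that passed the test with 2 groups per fit (0.24, adjusted p = 0.044) or without siUBE2M replicate 3 (0.25, adjusted p = 0.049). The ratio of HMOX1 to NQO1 per length was 5.18 ± 0.19 in control (SD, n = 3), 9.39 ± 1.00 in siNAE1 (SD, n = 3), 4.50 ± 1.63 in siUBE2M (SD, n = 3) and 17.9 ± 6.25 in siURM1 cells (SD, n = 2). The siNAE1 and siURM1 ratios all lay above the control ratios, and those of siUBE2M lay on both sides.

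**Figure D2:**
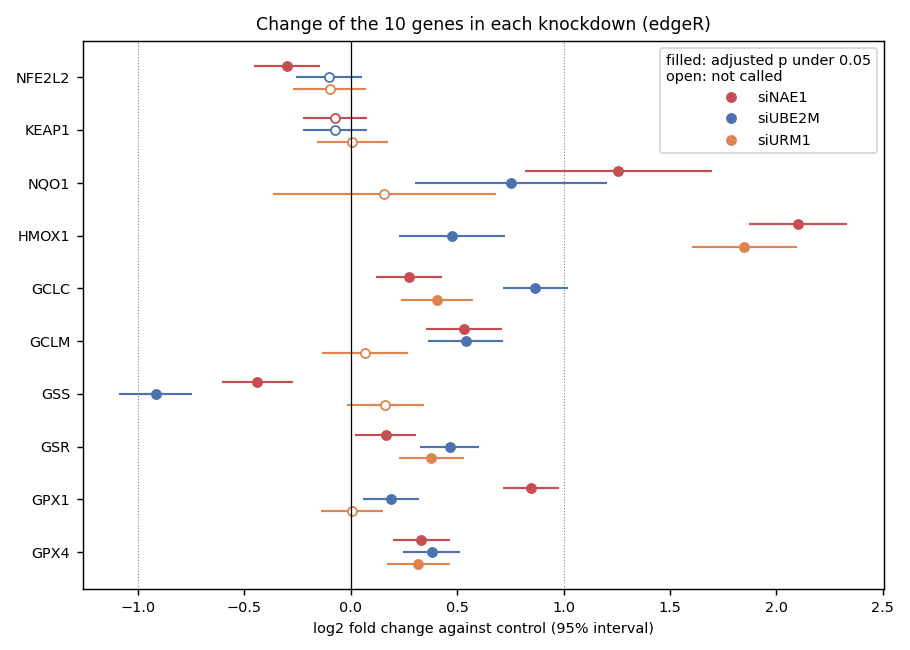
Log2 fold change of each gene in each knockdown against control, from edgeR, with a bar for the 95% interval, a filled dot where the adjusted p is under 0.05 and dotted lines at -1 and 1. Only HMOX1 (siNAE1, siURM1) and NQO1 (siNAE1) lie past a dotted line, and GSS lies to the left of 0 in siNAE1 and siUBE2M cells.

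Glutathione is made in 2 steps, and in siNAE1 and siUBE2M cells transcripts of the first step rose while that of the second fell. GCLC and GCLM encode the catalytic and the modifier subunit of glutamate-cysteine ligase, the enzyme of the rate-limiting step. GCLC (ENSG00000001084, chromosome 6, 53497341 to 53616970, minus strand) had 43.2, 43.2 and 44.6 CPM in control and 50.4, 56.0 and 51.8 CPM in siNAE1 libraries. It had 84.3, 79.0 and 75.8 CPM in siUBE2M and 59.5 and 56.3 CPM in siURM1 libraries. No 2 groups overlapped, and siUBE2M cells were highest. GCLC rose by 0.27 in siNAE1 cells (standard error 0.08, adjusted p = 0.0029), 0.87 in siUBE2M cells (standard error 0.07, adjusted p = 3e-11) and 0.41 in siURM1 cells (standard error 0.08, adjusted p = 0.00017). It was higher in siUBE2M cells than in siURM1 cells by 0.46 (adjusted p = 4.3e-05) and lower in siNAE1 than in siUBE2M cells by -0.60 (adjusted p = 7.1e-08). Between siNAE1 and siURM1 cells it differed by -0.13 (95% interval -0.30 to 0.04, adjusted p = 0.21).

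GCLM (ENSG00000023909, chromosome 1, 93885205 to 93909456, minus strand), whose start site carries the match printed above, had 29.6, 30.3 and 33.1 CPM in control and 43.9, 49.0 and 41.3 CPM in siNAE1 libraries. It had 47.2, 46.8 and 41.1 CPM in siUBE2M libraries and 32.4 and 32.5 CPM in siURM1 libraries. The siNAE1 and siUBE2M libraries were above all others, and the siURM1 libraries lay within the control range. GCLM rose by 0.53 in siNAE1 cells (standard error 0.09, adjusted p = 5e-06) and by 0.54 in siUBE2M cells (standard error 0.09, adjusted p = 6e-06), and these knockdowns differed by -0.01 (95% interval -0.18 to 0.17). In siURM1 cells the value was 0.07 (95% interval -0.14 to 0.27, adjusted p = 0.63), and GCLM was higher by 0.47 in siNAE1 (adjusted p = 0.00031) and in siUBE2M cells (adjusted p = 0.00029) than in siURM1 cells.

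GSS, glutathione synthetase, which adds glycine in the second step, was the gene of the 10 that fell most. GSS (ENSG00000100983, chromosome 20, 34928433 to 34956027, minus strand) had 105, 108 and 89.0 CPM in control and 64.1, 77.6 and 81.5 CPM in siNAE1 libraries. It had 49.9, 54.9 and 55.1 CPM in siUBE2M libraries and 114 and 112 CPM in siURM1 libraries. The siUBE2M libraries were the lowest, the siNAE1 libraries came next, and both siURM1 libraries were above all control libraries. GSS fell by 0.44 on the log2 scale in siNAE1 cells (standard error 0.08, adjusted p = 3.3e-05) and by 0.92 in siUBE2M cells (standard error 0.08, adjusted p = 1.2e-10), to 0.53 of the control level in the latter. In siURM1 cells its value was 0.16 (95% interval -0.02 to 0.34, adjusted p = 0.14). GSS differed between every pair of knockdowns, by -1.08 for siUBE2M against siURM1 (adjusted p = 4.9e-11), -0.60 for siNAE1 against siURM1 (adjusted p = 2.6e-06) and 0.48 for siNAE1 against siUBE2M (adjusted p = 2.3e-05).

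Ratios within a library show how the parts of the pathway shifted against each other without a scaling between libraries. The ratio of GCLM to GCLC per length was 1.13 ± 0.05 in control (SD, n = 3), 1.35 ± 0.07 in siNAE1 (SD, n = 3), 0.901 ± 0.04 in siUBE2M (SD, n = 3) and 0.894 ± 0.04 in siURM1 cells (SD, n = 2). It was above all control libraries in siNAE1 and below all of them in siUBE2M and siURM1 cells. The ratio of GSS to GCLC was 3.23 ± 0.38 in control (SD, n = 3), 1.98 ± 0.21 in siNAE1 (SD, n = 3), 0.94 ± 0.10 in siUBE2M (SD, n = 3) and 2.73 ± 0.08 in siURM1 cells (SD, n = 2). In siUBE2M cells the 2 transcripts were thus about equal per listed gene length (6174 bases for GSS, 8646 for GCLC). Without a length their mean levels there were 53.3 and 79.7 CPM, so that likeness rests on the listed lengths. Each of the 4 groups held its own range of the ratio.

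**Figure D3:**
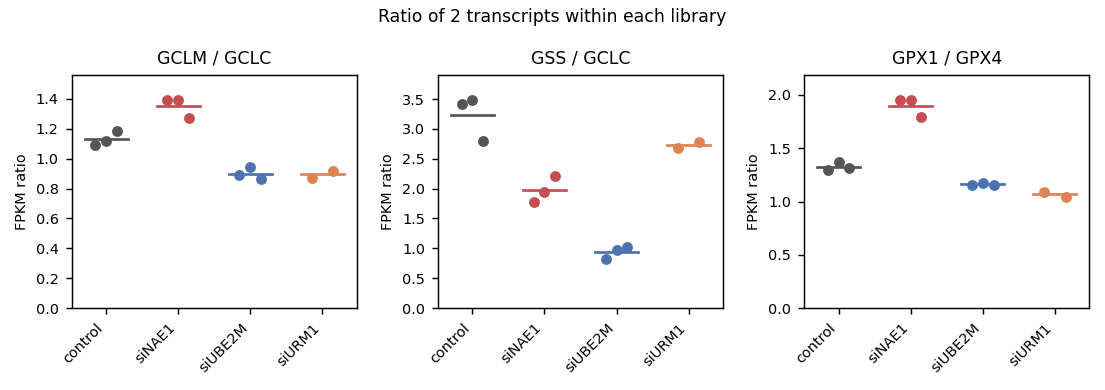
Ratio of FPKM values of 2 genes within each library (linear axes from 0), with one dot per library and a line at the group mean, for GCLM to GCLC, GSS to GCLC and GPX1 to GPX4. The GSS to GCLC ratio falls from 2.79 to 3.49 in control to 0.828 to 1.02 in siUBE2M cells, and the GPX1 to GPX4 ratio is highest in siNAE1 cells (1.79 to 1.96).

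GSR, glutathione reductase, regenerates reduced glutathione with NADPH. GSR (ENSG00000104687, chromosome 8, 30678061 to 30727999, minus strand) had 65.7, 65.6 and 66.5 CPM in control, 73.7, 75.2 and 72.7 CPM in siNAE1, 96.0, 91.4 and 85.7 CPM in siUBE2M, and 83.2 and 88.4 CPM in siURM1 libraries. All knockdown libraries were above all control libraries, and siUBE2M and siURM1 overlapped. GSR rose by 0.47 in siUBE2M cells (standard error 0.07, adjusted p = 1.2e-06) and by 0.38 in siURM1 cells (standard error 0.08, adjusted p = 0.00013), which differed by 0.09 (95% interval -0.07 to 0.24). The value in siNAE1 cells, 0.16 (standard error 0.07, adjusted p = 0.045), lost its call in 13 of 18 alternatives, among them DESeq2 (adjusted p = 0.062), while its size stayed between 0.15 and 0.18 there. Those without 1 library that lost it were the ones without any of the 3 control, the 3 siNAE1 or the 2 siURM1 libraries. GSR was lower in siNAE1 than in siUBE2M cells by -0.30 (adjusted p = 0.00055) and lower than in siURM1 cells by -0.22 (adjusted p = 0.025). The latter was lost in 5 of 18 alternatives, without siNAE1 replicate 1 (-0.21), siNAE1 replicate 3 (-0.20) or siURM1 replicate 2 (-0.17), with no filter on low counts (-0.22) and with the replicate number as a block (-0.20, adjusted p = 0.055).

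GPX1 and GPX4 are selenoproteins that reduce peroxides with glutathione, GPX1 hydrogen peroxide in the cytosol and GPX4 lipid hydroperoxides in membranes. GPX1 (ENSG00000233276, chromosome 3, 49357171 to 49358600, minus strand), which the deposited annotation lists as a polymorphic pseudogene although it makes the enzyme, had 180.4, 193 and 175 CPM in control and 309.6, 339 and 338 CPM in siNAE1 libraries. It had 203, 199 and 224 CPM in siUBE2M and 193 and 174 CPM in siURM1 libraries. The siNAE1 libraries stood apart from all others, the siUBE2M libraries lay just above control, and the siURM1 libraries sat at both ends of the control range. GPX1 rose by 0.85 in siNAE1 cells (1.80-fold, standard error 0.06, adjusted p = 8.5e-13) and by 0.19 in siUBE2M cells (standard error 0.06, adjusted p = 0.016). The siUBE2M call was lost in 3 of 18 alternatives, without control replicate 3 (0.17, adjusted p = 0.071) or siUBE2M replicate 3 (0.14, adjusted p = 0.096) and with limma-trend on log2(FPKM + 1) (0.18, adjusted p = 0.11). In siURM1 cells the value was 0.01 (95% interval -0.14 to 0.15).

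Between knockdowns GPX1 was higher in siNAE1 than in siUBE2M cells by 0.66 (adjusted p = 4.9e-10) and than in siURM1 cells by 0.84 (adjusted p = 7.2e-11). The difference of 0.18 between siUBE2M and siURM1 cells (adjusted p = 0.048) lost its call in 13 of 18 alternatives, among them those without any 1 of the 3 control libraries, siNAE1 replicates 2 or 3, siUBE2M replicates 1 or 3, or siURM1 replicate 2, with values from 0.10 (without siURM1 replicate 2) to 0.20. With length and GC trends removed it was called at 0.28. The pseudogene GPX1P1, which resembles GPX1, had 11 to 36 counts per library against at least 2512 for GPX1.

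GPX4 (ENSG00000167468, chromosome 19, 1103926 to 1106791, plus strand) rose in all 3 knockdowns. It had 197, 199 and 188 CPM in control, 223, 246 and 266 CPM in siNAE1, 248, 239 and 274 CPM in siUBE2M, and 250.2 and 235 CPM in siURM1 libraries. All knockdown libraries were above all control libraries, and the knockdowns overlapped each other. On the log2 scale it changed by 0.33 (standard error 0.07, adjusted p = 7.6e-05), 0.38 (standard error 0.07, adjusted p = 1.5e-05) and 0.32 (standard error 0.07, adjusted p = 0.00067) in siNAE1, siUBE2M and siURM1 cells. Differences between knockdowns were 0.01 (95% interval -0.14 to 0.16) for siNAE1 against siURM1, 0.06 (-0.08 to 0.21) for siUBE2M against siURM1 and -0.05 (-0.18 to 0.08) for siNAE1 against siUBE2M. With length and GC trends removed the last 2 were 0.16 (adjusted p = 0.019) and -0.20 (adjusted p = 0.0015). The ratio of GPX1 to GPX4 per length was 1.32 ± 0.04 in control (SD, n = 3), 1.90 ± 0.09 in siNAE1 (SD, n = 3), 1.16 ± 0.01 in siUBE2M (SD, n = 3) and 1.07 ± 0.03 in siURM1 cells (SD, n = 2). It was above control in all siNAE1 libraries and below it in all siUBE2M and siURM1 libraries.

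Per length, the peroxidases were by far the most abundant of these transcripts in control cells. FPKM values are fragments scaled by listed gene length and an adjusted library total, so levels between genes rest on the listed lengths. The levels in FPKM (SD, n = 3) were 127 ± 6.87 for GPX1, 95.6 ± 3.08 for GPX4 and 21.7 ± 0.89 for KEAP1. GSR (17.4 ± 0.16) and GSS (16.2 ± 1.63) followed and overlapped, and NFE2L2 had 10.5 ± 0.75 FPKM. GCLM (5.67 ± 0.34), HMOX1 (5.12 ± 0.55) and GCLC (5.01 ± 0.10) came next, HMOX1 overlapping both GCLM and GCLC, which did not overlap each other, and NQO1 was last with 0.989 ± 0.08 FPKM. GPX1 stood above 98.8% of all tested genes in control cells and NQO1 above 25.2%. In siNAE1 cells HMOX1 reached 21.9 ± 1.30 FPKM (SD, n = 3), a level like that of KEAP1 in the same cells (20.5 ± 2.05 FPKM, SD, n = 3).

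Counted together, more of the 10 genes rose than fell in each comparison with control. In siNAE1 cells 7 rose, 2 fell and 2 were DEGs, where 27.6% of all tested genes rose, 27.1% fell and 13.9% were DEGs. In siUBE2M cells 7 rose, 1 fell and 0 were DEGs in edgeR, where the largest change was that of GSS (-0.92), against 22.7%, 22.6% and 7.11% of tested genes. In siURM1 cells 4 rose, 0 fell (0 also at an unadjusted p under 0.05 in edgeR) and 1 was a DEG, against 20.8%, 20.8% and 7.62%. The 3 comparisons share the control libraries, and the 7 genes of siNAE1 cells include GSR, whose call was lost in 13 of 18 alternatives. The count of genes called in siUBE2M cells was 5 in place of 8 with limma-trend on log2(FPKM + 1), where NQO1, HMOX1 and GPX1 were not called (adjusted p = 0.11, 0.061 and 0.11). The median log2 fold change of the 10 genes was 0.30, 0.42 and 0.16 in siNAE1, siUBE2M and siURM1 cells, and that of all tested genes was -0.00, 0.01 and -0.02. The median size of change, without its sign, was 0.38, 0.47 and 0.16 for the 10 genes and 0.42, 0.34 and 0.34 for all tested genes.

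Between knockdowns the directions were mixed. For siNAE1 against siURM1, 3 genes were higher, 2 lower and 1 was a DEG (NQO1), against 19.5%, 19.1% and 6.76% of tested genes. For siUBE2M against siURM1, 3 were higher, 2 lower and 2 were DEGs (HMOX1 and GSS, both lower in siUBE2M cells), against 16.7%, 18.3% and 5.41%. For siNAE1 against siUBE2M, 4 were higher, 3 lower and 1 was a DEG (HMOX1), against 22.7%, 21.6% and 7.84%. The siRNA concentrations differ in all 3 of these comparisons.

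Other genes of the pathway were followed as lists, whose counts stand beside the shares of all tested genes that rose and fell, 27.6% and 27.1% in siNAE1, 22.7% and 22.6% in siUBE2M, and 20.8% and 20.8% in siURM1 cells. Of 14 regulators and partners of NRF2, 7 rose and 2 fell in siNAE1 cells, 4 rose and 4 fell in siUBE2M cells, and 6 rose and 3 fell in siURM1 cells, so that the counts in siUBE2M cells lay near those shares. CUL3, the cullin that holds KEAP1, fell by 0.28 in siURM1 cells (adjusted p = 0.0047), and its values were -0.12 and -0.07 in siNAE1 and siUBE2M cells (adjusted p = 0.15 and 0.44). RBX1, the RING subunit of the same ligase, rose by 0.77, 0.22 and 0.52 in siNAE1, siUBE2M and siURM1 cells (adjusted p = 5.5e-11, 0.013 and 2.1e-06). BACH1, which represses HMOX1 at antioxidant response elements, fell by 0.30 in siNAE1 cells (adjusted p = 0.01) and by 0.71 in siUBE2M cells (adjusted p = 5.9e-07), and its value in siURM1 cells was 0.04 (adjusted p = 0.80).

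Among the small MAF genes, whose proteins partner NRF2 or BACH1 on DNA, MAFF rose by 1.01, 1.04 and 1.00 in siNAE1, siUBE2M and siURM1 cells (adjusted p = 4.2e-05, 3.3e-05 and 0.00022), from 3.49 CPM in control cells. MAFK rose by 1.02 in siNAE1 cells (adjusted p = 5.6e-10) and 0.30 in siUBE2M cells (adjusted p = 0.023), with a value of -0.16 in siURM1 cells (adjusted p = 0.32). MAFG rose by 0.23 in siNAE1 cells (adjusted p = 0.0048) and fell by 0.32 in siURM1 cells (adjusted p = 0.0012). BACH2, a relative of BACH1, fell in siNAE1, siUBE2M and siURM1 cells, with log2 fold changes of -1.10, -0.47 and -0.51 (adjusted p = 1.2e-07, 0.0057 and 0.0079).

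Of 26 other targets of NRF2, 21 were tested. In siNAE1 cells 14 rose and 3 fell (median log2 fold change 0.44), in siUBE2M cells 8 rose and 4 fell (median 0.10), and in siURM1 cells 11 rose and 1 fell (median 0.29). PRDX1, a peroxiredoxin, rose most, from a mean of 94.6 CPM in control cells to 418, 268 and 304 CPM in siNAE1, siUBE2M and siURM1 cells (adjusted p at most 1.4e-18). FTL, the light chain of the iron store ferritin, rose by 0.69, 0.48 and 1.04 (adjusted p = 9.1e-10, 1.4e-06 and 2e-12). ABCC2, an exporter of glutathione conjugates with 1.83 CPM in control cells, rose by 1.02 and 1.38 in siNAE1 and siUBE2M cells (adjusted p = 0.0027 and 9.3e-05) and was at -0.12 in siURM1 cells (adjusted p = 0.82). SLC7A11, the cystine importer, fell in each, with values of -2.23, -1.22 and -1.76 (adjusted p at most 1.9e-12). The summed HEK293T markers were likewise higher in every knockdown library than in control (499 to 653 against 383 to 401 CPM), and their part in the values of these lists or of the 10 genes was not tested.

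**Figure D4:**
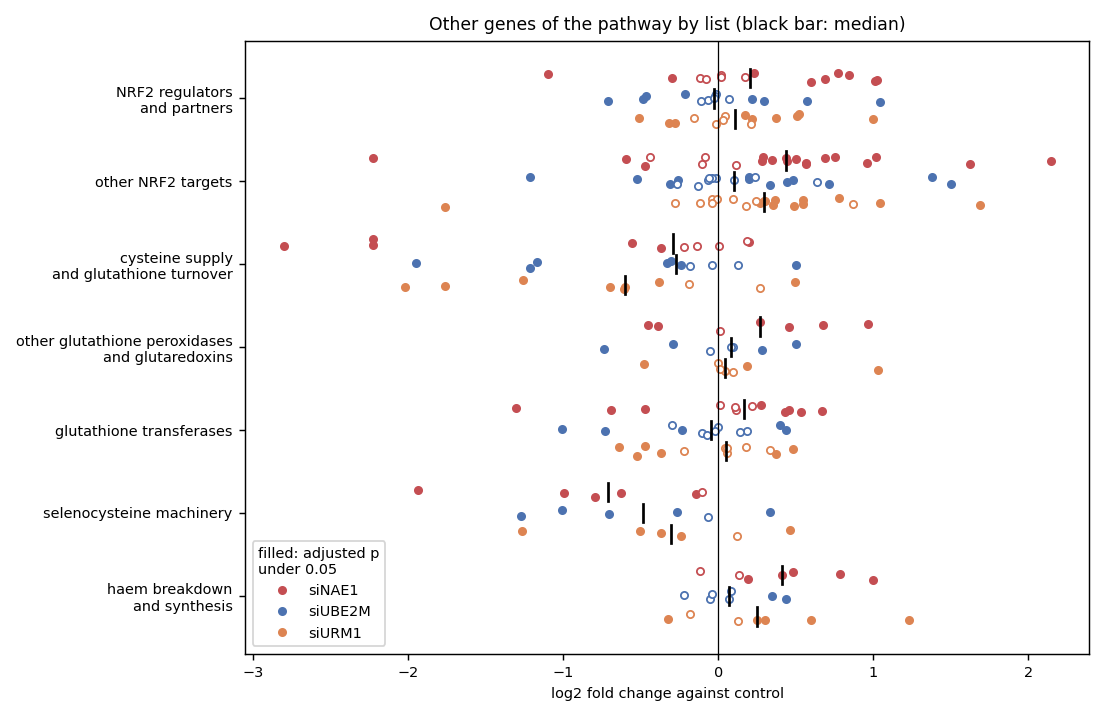
Log2 fold change against control of every tested gene of 7 lists, by knockdown, with a filled dot where the adjusted p is under 0.05 and a black bar at the median. The medians of cysteine supply and turnover and of the selenocysteine machinery lie below 0 in all 3 knockdowns, and those of the other NRF2 targets lie above 0.

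Cysteine is the limiting building block of glutathione. Of 12 genes of cysteine supply and glutathione turnover 10 were tested, SLC7A11 among them, and 1 rose and 5 fell in siNAE1 cells, 1 rose and 6 fell in siUBE2M cells, and 1 rose and 7 fell in siURM1 cells, with medians of -0.30, -0.27 and -0.61. CTH, which makes cysteine from cystathionine, had 189 CPM in control cells and 40.5, 48.9 and 46.6 CPM in siNAE1, siUBE2M and siURM1 cells. CHAC1, which degrades glutathione, had 85.2 CPM in control and 12.1, 37.8 and 35.5 CPM in the knockdowns. Both fell in each knockdown (adjusted p at most 3.4e-12).

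The selenocysteine machinery is needed to translate GPX1 and GPX4. All 6 genes of the list were tested, and 0 rose and 5 fell in siNAE1 cells, 1 rose and 4 fell in siUBE2M cells, and 1 rose and 4 fell in siURM1 cells (medians -0.71, -0.49 and -0.31). SEPSECS, which makes selenocysteine on its tRNA, fell in each, with log2 fold changes of -1.94, -1.27 and -1.27 (adjusted p = 5.2e-13, 2.1e-09 and 3.5e-08). PSTK, the kinase of the preceding step, fell likewise, with -0.999, -1.01 and -0.50 (adjusted p = 8.2e-08, 9.6e-08 and 0.0037).

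Of 9 other glutathione peroxidases and glutaredoxins 7 were tested, and 4 rose and 2 fell in siNAE1 cells, 2 rose and 2 fell in siUBE2M cells, and 2 rose and 1 fell in siURM1 cells. GLRX, a cytosolic glutaredoxin, rose by 0.68, 0.50 and 1.03 (adjusted p = 2.8e-05, 0.0014 and 1.5e-07). Of 14 glutathione transferases 12 were tested, and 5 rose and 3 fell, 2 rose and 3 fell, and 2 rose and 4 fell in siNAE1, siUBE2M and siURM1 cells, which in siUBE2M cells lay near the shares of all tested genes. GSTA4, which conjugates the lipid peroxidation product 4-hydroxynonenal, fell in each, with log2 fold changes of -0.69, -1.01 and -0.53 (adjusted p = 3.4e-08, 3.5e-11 and 3.4e-05), and GSTO2 also fell, with -1.30, -0.73 and -0.47 (adjusted p = 1.7e-08, 1e-04 and 0.018).

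Genes of haem breakdown and synthesis bear on HMOX1, whose substrate is haem. All 7 were tested, and 5 rose and 0 fell in siNAE1 cells, 2 rose and 0 fell in siUBE2M cells, and 4 rose and 1 fell in siURM1 cells (medians 0.41, 0.07 and 0.25). CPOX, which makes protoporphyrinogen in haem synthesis, rose by 0.79 under siNAE1 (adjusted p = 4.1e-10) and by 1.23 under siURM1 (adjusted p = 3.1e-13), and its value in siUBE2M cells was 0.07 (adjusted p = 0.52). Its mean level was 45.5 CPM in control and 78.3, 47.7 and 107 CPM in siNAE1, siUBE2M and siURM1 cells.

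For 4 genes, the 3 others whose pattern lay nearest over the 11 libraries were found among 10468 genes that averaged 10 CPM or more, by the root mean square difference of log2 CPM less the control mean. Nearest to HMOX1 were FOS (0.21), DUSP5 (0.26) and ADAMTS1 (0.28), and FOS was at 1.99 in siNAE1, 0.36 in siUBE2M and 2.05 in siURM1 cells on the log2 scale against control. Nearest to NQO1 were MSRB1 (0.23), HSP90AB1 (0.24) and SPTB (0.25), and MSRB1 had 1.24, 0.54 and 0.15. Nearest to NFE2L2 were CNOT10 (0.05), GON7 (0.06) and TMEM192 (0.07), and nearest to KEAP1 were CPSF3 (0.05), CDIPT (0.06) and TXNRD2 (0.06).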

How the data were processed

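RNA-seq of 11 HEK293T libraries was analysed. Per the labels and the study's methods, the authors used fastp for trimming, HISAT2 2.0.5 for alignment to GRCh38 and featureCounts 1.5.0-p3 for fragment counts per gene. They deposited raw counts and FPKM values, which are counts scaled by listed gene length and a total for each library. The total that the FPKM values imply was 0.961 to 1.07 times the sum of counts of the library. The annotation version and strand setting are not given in the sources used here. No column of values was left unused.

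The counts went through edgeR 4.0.16 in R 4.3.3, with filterByExpr, TMM, and one quasi-likelihood fit of 4 groups with 6 comparisons. Genes were called at an adjusted p under 0.05, and DEGs also changed by at least 1 on the log2 scale. The biological coefficient of variation was 7.06%. Totals of 11733163 to 16321391 counts set the precision, which is least for NQO1. Intervals are at the 95% level. Ratios and levels between genes used the deposited FPKM. Patterns used log2 CPM with a prior count of 2. Plots were made with Python 3.11.15 and matplotlib 3.10.9.

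The genes named are the 10 members, the 3 targeted genes, CUL3, RBX1, BACH1 and the small MAF genes, up to 4 DEGs of each list (largest change, mean of 1 CPM or more), and the 3 nearest patterns. AGPS, AC019080.1, AC019080.5 and GPX1P1 were named for their overlap or likeness with a member after values were seen. The members and lists were chosen with earlier results of these data known.

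Alternatives were RLE scaling, no filter, DESeq2 1.42.0, 2 groups per fit, the replicate number as a block, limma-trend 3.58.1 on log2(FPKM + 1), removal of length and GC trends (GC known for 99.4% of tested genes), and leaving out each library. DESeq2 and limma-trend ran without the filter on low counts, so their adjusted p covers another set of genes. The edgeR, DESeq2 and limma steps were tested on simulated data. Enrichment analyses and the study's other experiments were not analysed here.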

Additional observations from a re-analysis of the deposited data

How the results depend on the processing

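Of 60 values (10 genes in 6 comparisons), 38 were called, 30 of these kept their call and direction in all 18 alternatives, 8 lost the call in at least 1, and 0 changed sign. On log2(FPKM + 1) with limma-trend, 5 genes were called for siUBE2M against control, 1 was a DEG for siNAE1 against control and 0 were for siNAE1 against siURM1. That fit took all genes with an FPKM above 0 in any library, a larger set than the 18368 genes tested in edgeR. It gave 755, 313 and 359 DEGs for siNAE1, siUBE2M and siURM1 against control (2555, 1306 and 1399 in edgeR), and 313, 245 and 276 between knockdowns (1241, 993 and 1440). Leaving out 1 library gave 0 to 1 DEGs for siNAE1 against siURM1, with 0 without siURM1 replicate 2.

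Same-numbered libraries correlated by -0.0657 to 0.0787 over 15 pairs, so the replicate numbers name samples and do not pair them. With the replicate number as a block, calls were lost for GSR in siNAE1 cells against control (0.16, adjusted p = 0.056) and against siURM1 (-0.20, adjusted p = 0.055) and for GPX1 in siUBE2M against siURM1 (0.17, adjusted p = 0.085), and NQO1 in siUBE2M against siURM1 was called (0.64, adjusted p = 0.047, edgeR). Of the 11 libraries, 3 correlated best with a library of their own number.

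Of the 22 values that were not called, 9 changed sign in at least 1 alternative, and all are near 0 or imprecise. NFE2L2 for siUBE2M against siURM1 was 0.0048 with 2 groups per fit, and KEAP1, GPX1 (siURM1 against control) and GCLM (siNAE1 against siUBE2M) were -0.0431, -0.0523 and 0.0725 without length and GC trends. GPX4 for siNAE1 against siURM1 was -0.0182 with the block and -0.0328 without the trends. With 1 library left out, the range was -0.0432 to 0.0272 for NFE2L2 (siUBE2M against siURM1). For KEAP1 it was -0.13 to 0.0064 (siNAE1 against control), -0.0122 to 0.0546 (siURM1 against control) and -0.0600 to 0.0783 (siNAE1 against siUBE2M). For NQO1 (siURM1 against control) it was -0.22 to 0.45, for GCLM (siNAE1 against siUBE2M) -0.0795 to 0.0562 and for GPX1 (siURM1 against control) -0.0671 to 0.0844. For GPX4 it was -0.0460 to 0.0776 (siNAE1 against siURM1) and -0.10 to 0.0130 (siNAE1 against siUBE2M). Without either siURM1 library the lone remaining sample is assumed to vary like the other groups.

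Among list counts, 2 genes of cysteine supply and 1 glutaredoxin or peroxidase were called higher in siURM1 cells without the filter, and 1 of the latter in siUBE2M cells in DESeq2. The causes of these changes were not tested. Depth limits NQO1 most, which had 40 to 121 counts per library.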
